A study of Mus musculus with 461 samples.

Results

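The genes described here are Map2k6 and the other kinases, targets and phosphatases of the p38 pathway, 10 genes chosen by symbol of the 31673 in the expression tables. They comprise 3 kinases upstream of p38 (Map2k6, Map2k3 and Map2k4), the 4 p38 kinases (Mapk14, Mapk11, Mapk12 and Mapk13), the target kinase Mapkapk2, and 2 phosphatases that switch p38 off (Dusp1 and Dusp10). All 10 were found and all 10 passed the filter on low counts. The study followed mouse embryonic fibroblasts (MEFs) through reprogramming with the 7F system by sequencing 461 single cells captured on the Fluidigm C1 instrument. The fibroblasts carry the OG2 transgene, in which a Pou5f1 (Oct4) promoter drives green fluorescent protein, on a mixed background of the strains 129SVJ, C57B6 and CBA. MEFs were kept in medium with 10% fetal bovine serum and reprogramming cells in iCD1 medium. Cells came from days 0, 1, 3, 4, 5 and 7, and each title carries a prefix b1, b2 or b3 whose meaning the labels do not give.

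The labels do not name the 7 factors of the cocktail. As published, Map2k6 is one of them, together with Sall4, Esrrb, Nanog, Glis1, Kdm2b and Jdp2. A gene's count does not separate an introduced copy from the cell's own, so each value of Map2k6 below is their sum. The same holds for Map2k3 and any other gene, should a copy of it have been introduced, which the labels do not state. The labels do not say whether the day 0 cells already held the factors, and in these files the day 0 cells had Map2k6 at 491 and 674 CPM (counts scaled to the library size). No sample without the cocktail was analysed here.

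p38 is a stress-activated protein kinase. Signals such as ultraviolet light, osmotic shock and cytokines activate MAP3 kinases, which phosphorylate the MAP2 kinases Map2k6 (MKK6), Map2k3 (MKK3) and, more weakly toward p38, Map2k4 (MKK4). These phosphorylate p38 on a threonine and a tyrosine of its activation loop. Active p38 then phosphorylates kinases such as Mapkapk2 (MK2), which controls the stability of inflammatory messenger RNAs, and dual-specificity phosphatases such as Dusp1 and Dusp10 remove the phosphates again. Messenger RNA levels say nothing about the phosphorylation state of these proteins, which was not measured.

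A set is all cells that share a day and a prefix. There were 10 sets, and the 8 with 10 or more cells were tested. These were day 0 b1 (20 cells), day 0 b2 (54), day 1 b2 (58), day 3 b1 (61), day 3 b2 (58), day 4 b3 (59), day 5 b2 (79) and day 7 b2 (65), while day 5 b1 held 5 cells and day 7 b1 held 2. Days 0 and 3 therefore had 2 sets and every other day had 1, whose spread was assumed to be that of days 0 and 3. The labels do not say that sets came from separate embryos or derivations, so the p-values measure only the spread between these sets. Day 4 was the only day with prefix b3, and in its values the day and the prefix cannot be told apart.

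Cells held 0.319 to 6.999 M counts, with a median of 2.503 M, and the day 4 set was the shallowest at a median of 0.983 M. Fibroblast markers checked the label. Their mean TPM summed over 12 genes (Col1a1, Dcn, Thy1, Vim and others) was 2785 and 1955 in the day 0 sets and 739.6 in day 1 b2. It was 664 in day 3 b1, 1324 in day 3 b2, 847 in day 4 b3, 591 in day 5 b2 and 512 in day 7 b2. From 10 to 12 of the 12 were above 1 TPM in each of the 8 sets. Markers of pluripotent cells, summed over 6 genes such as Pou5f1 and Zfp42, stood at 0.289 and 0.248 TPM at day 0 and 23.4 in day 1 b2. The sum was 27.4 in day 3 b1, 276 in day 3 b2, 349.7 in day 4 b3, 4325 in day 5 b2 and 9085 in day 7 b2. The 2 day 3 sets, which enter the tests as replicates, thus differed in both groups of markers. Markers of other cell types were lower than those of fibroblasts. Their summed mean TPM over the 8 sets was 0.573 to 30.04 for endothelial, 1.43 to 22.7 for immune and 2.78 to 15.0 for keratinocyte markers. It was 0.799 to 45.3 for skeletal muscle and 2.25 to 84.2 for neural markers. Some of them were above 1 TPM, in a set 0 to 5 of 6 endothelial, 1 to 2 of 7 immune and 1 to 2 of 5 keratinocyte markers. For skeletal muscle it was 0 to 2 of 5 and for neural markers 1 to 3 of 5. The changes with day described below were measured over the same days as this change of cell state, and the part of either in the other was not tested. From day 3 b1 and b2 to day 4 b3, the pluripotent sum went from 27.4 and 276 to 349.7 TPM. Over the same sets Map2k6 went from 440.1 and 415 to 3.84 CPM.

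Map2k6 and Map2k3 are the pair on which the results turn, and they are close relatives. The 90 bases of each coding sequence that encode the activation loop and its flanks are shown because they tell how far reads of the pair can be assigned to one gene or the other. They come from the GENCODE M21 transcripts (mouse GRCm38, chromosome 11 for both), from coding position 580 to 669 in Map2k6 and from 613 to 702 in Map2k3, 5′ to 3′. Capitals mark the 14 positions at which they differ.

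Map2k6: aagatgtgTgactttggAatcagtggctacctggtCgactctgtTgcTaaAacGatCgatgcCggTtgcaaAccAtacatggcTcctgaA

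Map2k3: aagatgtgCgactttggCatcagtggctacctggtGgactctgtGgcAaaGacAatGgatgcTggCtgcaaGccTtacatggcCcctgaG

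The coding sequences, 1005 and 1044 bases long, were identical at 72.16% of 1002 aligned bases. Their longest shared run was 23 bases, also when 5 Map2k6 and 6 Map2k3 transcripts with their untranslated parts were searched. No window of 25 or of 50 bases occurred in both genes. In the deposited expected counts, which become fractional where a read is shared among genes or isoforms, Map2k6 was fractional in 1 of 346 cells with counts and Map2k3 in 1 of 400.

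Counted over the 10 genes, the number called was 0 at day 1 and 0 at day 3 against day 0 (edgeR's quasi-likelihood test, adjusted p under 0.05), where 1.18% and 3.14% of all 22378 genes were called (at day 3, 2.1% higher and 1.04% lower). It was 2 at day 4 (Map2k6 lower, Map2k3 higher), where 3.03% of all genes were called (2.07% higher, 0.965% lower). At day 5 it was 2, both lower (Map2k6 and Dusp1), against 4.73% of all genes (2.56% higher, 2.18% lower). At day 7 it was 2 (Map2k6 lower, Mapk14 higher), against 6.6% (3.55% higher, 3.05% lower). Between neighbouring days, 2 were called from day 3 to day 4 (0.219% of all genes, 0.13% higher and 0.0894% lower), 2 from day 4 to day 5 (0.478%, 0.067% higher and 0.411% lower) and 0 from day 5 to day 7 (0.554%), and the called pair was Map2k6 and Map2k3 both times. In the comparisons of neighbours in the order of Map2k6 levels, 0 genes of the 10 were called from day 1 to day 3 (0.402% of all genes), 1, Map2k6, from day 3 to day 5 (1.71%, 0.643% higher and 1.07% lower) and 2, Map2k6 and Map2k3, from day 4 to day 7 (1.71%, 0.29% higher and 1.42% lower). Where edgeR called 0 of the 10, the number at an unadjusted p under 0.05 was 0 at day 1 against day 0, 2 at day 3 against day 0 (Dusp1 and Mapk14), 1 from day 5 to day 7 (Mapk11) and 0 from day 1 to day 3, and DESeq2 called 0, 0, 1 (Mapk11) and 0. The comparisons share the day 0, day 3 or day 4 sets and are not independent.

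**Figure D1:**
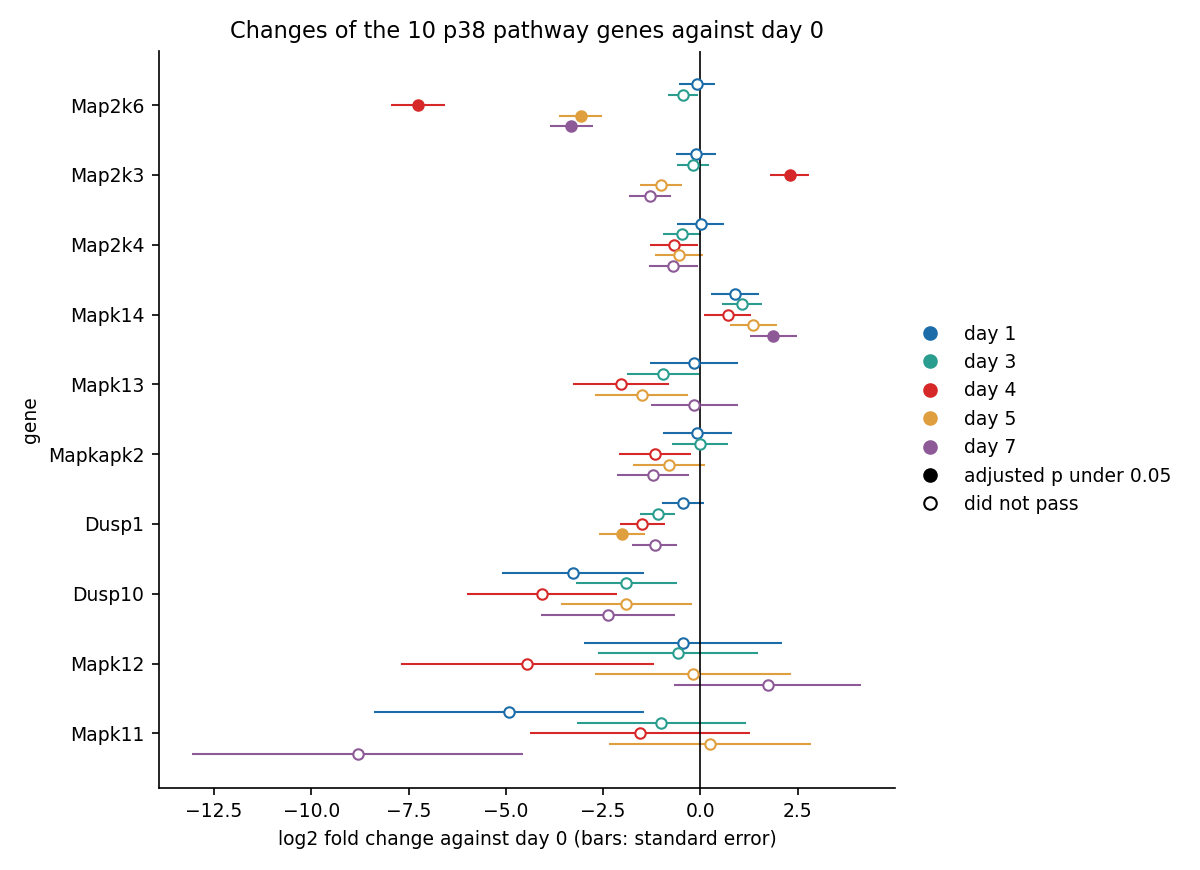
Log2 fold change against day 0 of the 10 genes at each later day (horizontal axis, bars are standard errors, filled points passed an adjusted p of 0.05 in edgeR). Map2k6 reaches −7.24 and Map2k3 2.30 at day 4, and the wide bars of Mapk11, Mapk12 and Dusp10 go with counts held by few cells.

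Map2k6 was high from day 0 to day 3, nearly absent in the day 4 set, and low at days 5 and 7. Its level, in counts summed over the cells of a set and scaled by TMM, was 491 CPM in day 0 b1, 674 in day 0 b2, 549 in day 1 b2, 440.1 in day 3 b1 and 415 in day 3 b2. It was 3.84 CPM in day 4 b3, 69 in day 5 b2 and 58.5 in day 7 b2. The 5 sets of days 0 to 3 did not overlap the 3 later ones, and the day 4 set lay below all others.

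Against the day 0 mean of 582 ± 129 CPM (SD, n = 2 sets), Map2k6 (ENSMUSG00000020623) fell by 7.24 ± 0.69 on the log2 scale at day 4 (± standard error, adjusted p = 3.51e-22), a level 152-fold lower. Adjusted p here and below is from edgeR's quasi-likelihood test with Benjamini-Hochberg adjustment over 22378 genes. It also fell at the later days, with log2 differences of −3.08 ± 0.55 at day 5 (adjusted p = 2.45e-06, 8.44-fold lower) and −3.31 ± 0.56 at day 7 (adjusted p = 2.97e-07, 9.95-fold lower). At day 1 the log2 difference from day 0 was −0.09 ± 0.47 (adjusted p = 1), and at day 3 it was −0.45 ± 0.38 (adjusted p = 0.753).

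In the order of levels, the days ran 0, 1, 3, 5, 7 and 4. The difference of day 1 from day 0 did not pass, nor did that of day 3 from day 1, with 428 ± 17.4 CPM at day 3 (−0.36 ± 0.46, adjusted p = 1). Day 5 lay below day 3 (−2.63 ± 0.54, adjusted p = 0.000191, and 0.0943 with the prefix as a block). The difference of day 7 from day 5 did not pass (−0.24 ± 0.54, adjusted p = 1). Days 1, 5 and 7 have 1 set each and so no spread of their own. Day 7 lay above day 4 by 3.93 ± 0.61 (adjusted p = 5.46e-08), and day 5 above day 4 by 4.17 ± 0.62 (adjusted p = 3.26e-08, 17.97-fold). The day 4 value is that of the only b3 set, and among the other sets the levels of days 0, 1, 3, 5 and 7 were 582, 549, 428, 69 and 58.5 CPM.

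Cells were also compared one by one in TPM (transcript abundance per length, scaled to the same total within each cell), with a TPM of 1 or more called detection. Map2k6 was detected in 19 of 20 cells of day 0 b1 and in all 54 of day 0 b2, in all 58 of day 1 b2, in 59 of 61 of day 3 b1 and in all 58 of day 3 b2. The day 4 set had it in 9 of 59 cells, or 15.3% (exact 95% interval 7.22 to 26.99%). At day 5 b2 it was detected in 42 of 79 cells, or 53.2% (41.6 to 64.5%), and at day 7 b2 in 31 of 65, or 47.7% (35.1 to 60.5%). These intervals cover counting error only.

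Cells of one set differed widely. In day 0 b2 Map2k6 ran from 1.11 to 2891 TPM around a median of 594, and in day 3 b1 from 0.270 to 4757 TPM around a median of 356. In day 5 b2 the median was 3.09 TPM and the highest cell had 813, so its highest cells stood above the median of day 0 b2. The retaining cells of day 7 b2 reached 1144 TPM, with a median over all cells of 0.880. With each cell thinned to 300000 counts, the share of cells with a Map2k6 count was 13.6% at day 4, 51.9% at day 5 b2 and 43.1% at day 7 b2, against 91.8% to 100% in the sets of days 0 to 3.

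In the day 4 set the few Map2k6 transcripts sat in few cells. The 9 cells ran from 1.01 to 104 TPM with a median of 7.51, and 1 cell held 60.7% of the set's 257 Map2k6 counts. With the highest cell of each gene left out of each set, the day 4 difference from day 0 was −8.58.

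**Figure D2:**
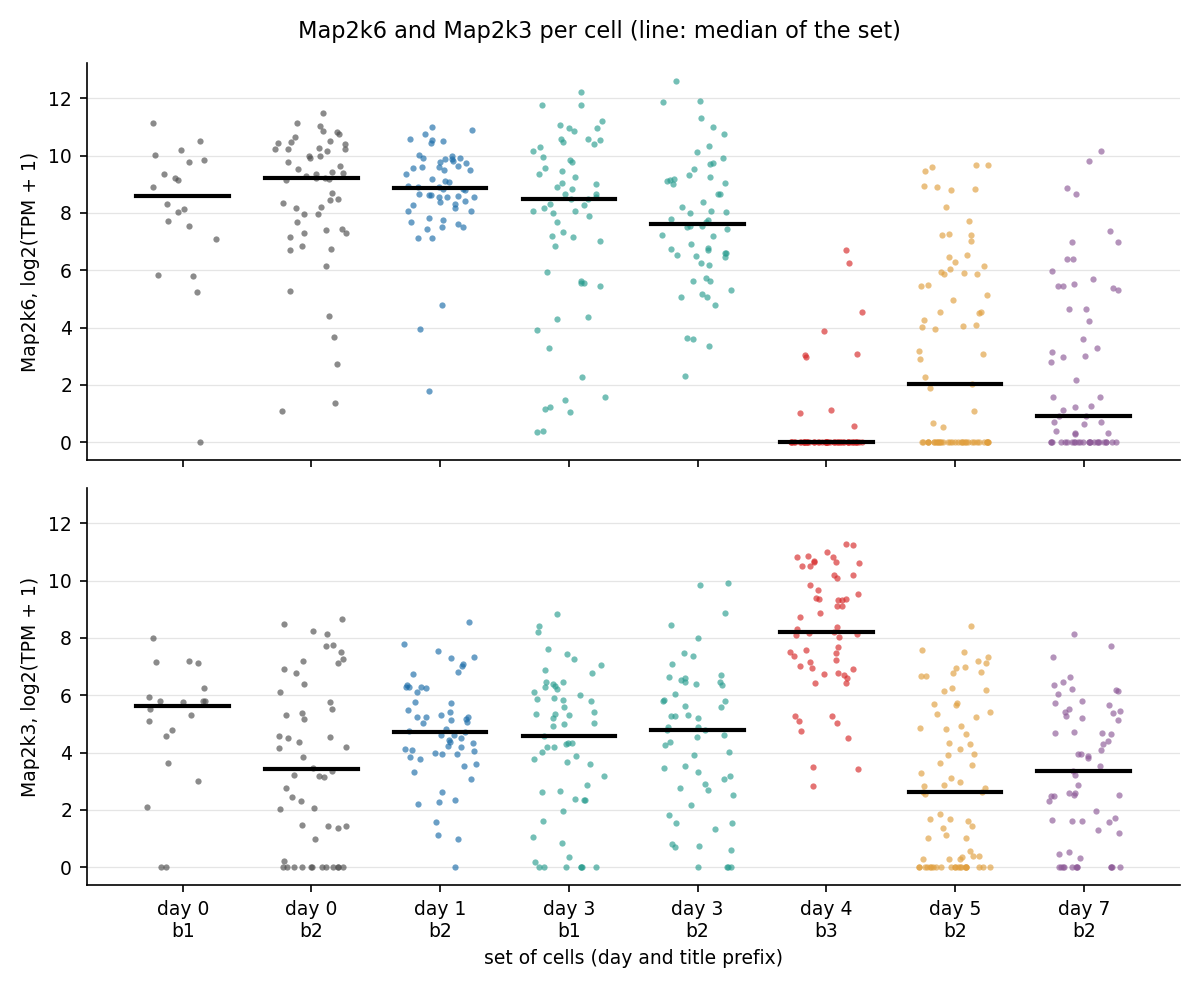
Map2k6 (top) and Map2k3 (bottom) in every cell of the 8 sets, as log2(TPM + 1) on the vertical axis, with 1 point per cell and a line at the median of the set. In the day 4 b3 set, the median of Map2k6 lies at 0 and that of Map2k3 at 291.5 TPM, while in the 5 sets of days 0 to 3 Map2k6 lies above Map2k3.

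Map2k3 (ENSMUSG00000018932), the closest relative of Map2k6 in the pathway, was high in that same day 4 set. It stood at 95.8 CPM in day 0 b1, 119.6 in day 0 b2, 100.1 in day 1 b2, 80.6 in day 3 b1 and 109 in day 3 b2. It reached 529 CPM in day 4 b3 and was back at 53.7 in day 5 b2 and 44 in day 7 b2. The day 4 set stood above all 7 others, whose range did not reach it.

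Against the day 0 mean of 108 ± 16.9 CPM (SD, n = 2 sets), Map2k3 rose at day 4 by 2.30 ± 0.49 (adjusted p = 0.000317, 4.91-fold), and against day 3 by 2.48 ± 0.50 (adjusted p = 0.000868). It lay below day 4 at day 5 (−3.30 ± 0.65, adjusted p = 0.000247, 9.85-fold) and at day 7 (−3.59 ± 0.66, adjusted p = 1.34e-05). Its differences from day 0 at days 1, 3, 5 and 7 were −0.11, −0.18, −1.004 and −1.29, and none passed the test (adjusted p from 0.166 to 1). The rise over day 3 rested on both day 3 sets. Without day 3 b1 it was 2.29 with an adjusted p of 0.52, and without day 3 b2 it was 2.72 with an adjusted p of 0.0652. The rise over day 0 passed with each of the day 0 and day 3 sets left out, at an adjusted p from 0.000245 to 0.00438. In limma on log2(mean TPM + 1), the day 4 differences from day 0 were −7.02 for Map2k6 and 3.38 for Map2k3 (adjusted p = 0.31 for both).

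Map2k3 was detected in every one of the 59 day 4 cells (exact 95% interval 93.9 to 100%), from 6.13 to 2465 TPM with a median of 291.5. In the 5 sets of days 0 to 3 its medians were 9.64 to 49.1 TPM, and 75.9% to 98.3% of cells had it. In all 59 day 4 cells Map2k3 was higher than Map2k6, and 50 of the 59 had Map2k3 alone. Among the 9 cells with Map2k6, Map2k3 ran from 26.3 to 550.2 TPM, and the cell with most Map2k6 (104 TPM) had 118 TPM of Map2k3.

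On the TPM scale, which is per length and so allows levels of the pair to be added, the mean of Map2k6 and Map2k3 together was 636 TPM in day 4 b3. It was 639 and 805 TPM in the day 0 sets, 676 in day 1 b2, and 784 and 692 in the day 3 sets. The sum thus lay just under the range of the earlier sets in the day 4 set, while the share of Map2k6 in it was 87.7% to 92.9% before day 4 and 0.640% at day 4. At day 5 b2 the pair summed to 122 TPM with 73% from Map2k6, and at day 7 b2 to 90.3 TPM with 67.2%. Over the cells of a set, Map2k6 and Map2k3 had a Pearson r between −0.13 and 0.17 in all 8 sets on log2(TPM + 1), a description over cells that share a day and a prefix and differ in depth. What set the day 4 b3 cells apart in this pair was not tested, because no other day carries the prefix b3 and no other prefix has a day 4.

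Within the day 4 set Map2k3 moved from cell to cell with the other genes of the cocktail. Its Pearson r on log2(TPM + 1) over 59 cells was 0.65 with Jdp2 (an AP-1 repressor), 0.45 with Glis1, 0.44 with Esrrb, 0.42 with Nanog, 0.40 with Kdm2b (a histone demethylase) and −0.05 with Sall4. In the other 7 sets its r with Jdp2 lay between −0.18 and 0.18. The median of the 6 values was 0.43 in the day 4 set, 0.37 in day 0 b1, which has 20 cells, and −0.05 to 0.15 in the other 6 sets.

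Map2k6 had its lowest r with Jdp2, and its lowest median over the 6 genes, in the day 4 set. Its r with Nanog (0.01) and Sall4 (0.20) was not lowest there. In that set 50 of 59 cells had Map2k6 below 1 TPM and 1 cell held 60.7% of its counts, so these r rest on few cells. Its r with Jdp2 was 0.73 and 0.58 in the day 0 sets, 0.47 in day 1 b2, 0.37 in day 3 b1 and 0.37 in day 3 b2, and −0.24 in day 4 b3. The median over the 6 genes was 0.31 to 0.61 in the 5 sets of days 0 to 3 and −0.12 in the day 4 set. At day 5 b2 Map2k6 followed Jdp2 (0.43) but not Nanog (−0.01) or Sall4 (−0.30), and at day 7 b2 it followed Glis1 (0.46) more than Jdp2 (0.22). These values carry no p, since cells of 1 set share a day and a prefix and are not replicates. The r of Map2k3 with the log10 count per cell was 0.06 in the day 4 set, and that of Map2k6 was −0.17 to 0.08 in 7 sets and 0.69 in day 0 b1. With the number of genes detected per cell, the r of Map2k3 was −0.32 in the day 4 set. That of Map2k6 was −0.24 to 0.22 in 7 sets and −0.48 in day 0 b1.

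**Figure D3:**
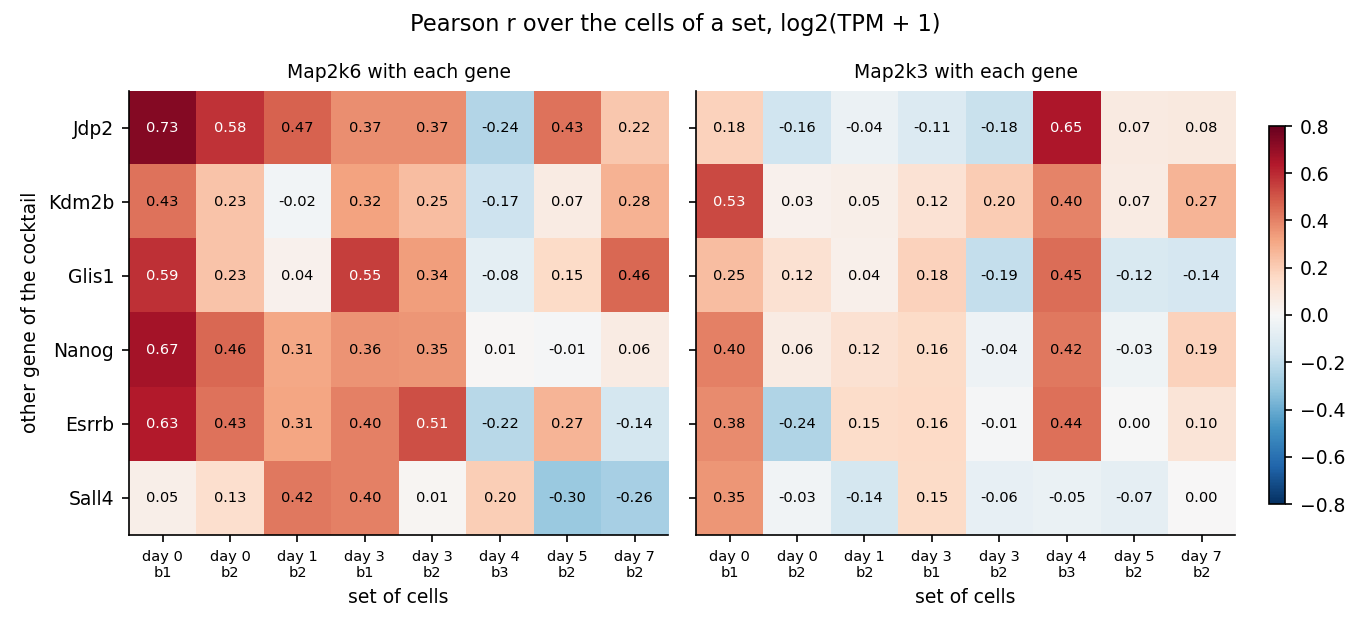
Pearson r of Map2k6 (left) and Map2k3 (right) with each of the 6 other cocktail genes over the cells of each set, on log2(TPM + 1). The color runs from blue (negative) to red (positive). Map2k3 with Jdp2 is at 0.65 in day 4 b3 and between −0.18 and 0.18 elsewhere, and Map2k6 with Jdp2 is at −0.24 in day 4 b3.

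Map2k4 (ENSMUSG00000033352), which also activates JNK, was called in no comparison. It was at 80.1 and 88 CPM in the day 0 sets, 84.8 in day 1 b2, 50.4 and 71.2 in the day 3 sets, 52.6 in day 4 b3, 57.9 in day 5 b2 and 52.1 in day 7 b2. The day 0 and day 1 sets lay above the 5 later ones. Its log2 differences from day 0 ran from −0.69 ± 0.62 at day 7 to 0.01 ± 0.60 at day 1, and none passed the test (adjusted p from 0.673 to 1).

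The p38 kinases themselves differed in how widely they were expressed. Mapk14 (p38α, ENSMUSG00000053436), the main isoform in most tissues, stood at 28.9 and 31 CPM in the day 0 sets, 55.5 in day 1 b2, 53.6 and 72 in the day 3 sets, 48.6 in day 4 b3, 77.2 in day 5 b2 and 109.6 in day 7 b2. All 6 later sets lay above both day 0 sets. Against the day 0 mean of 29.9 ± 1.45 CPM (SD, n = 2 sets), Mapk14 rose at day 7 by 1.87 ± 0.60 (adjusted p = 0.0321, edgeR). Its differences at days 1, 3, 4 and 5 were 0.89, 1.07, 0.70 and 1.37 and did not pass (adjusted p from 0.24 to 0.959).

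The day 7 call rested on the sets included. Leaving out day 0 b1 gave an adjusted p of 0.0512, leaving out day 3 b1 or day 3 b2 gave 0.089 and 0.0944, and the fit with the prefix as a block gave 0.206, at 1.74 to 1.87 on the log2 scale. Within prefix b2 alone the difference of day 7 from day 0 was 1.82. Mapk14 was detected in 24 of 54 cells of day 0 b2 and in 47 of 65 of day 7 b2.

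Mapk13 (p38δ, ENSMUSG00000004864) was detected in fewer cells of each tested set than Mapk14 and in more than Mapk11 or Mapk12. It stood at 19.3 and 23.2 CPM in the day 0 sets, 19 in day 1 b2, 12.9 and 8.92 in the day 3 sets, 5.16 in day 4 b3, 7.47 in day 5 b2 and 19.1 in day 7 b2. The sets of days 3 to 5 lay below those of days 0, 1 and 7, yet no difference from day 0 passed (−2.04 ± 1.24 at day 4, adjusted p = 0.672). Mapk13 was detected in 10 of 20 and 21 of 54 cells of the day 0 sets and in 15 of 79 of day 5 b2. In the tested sets from day 3 on, 19% to 27.7% of cells had it.

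On the TPM scale the shares of these isoforms differed between the early and the late sets among the 8 with 10 or more cells. Of the summed mean TPM of all 4 p38 kinases, Mapk13 made 59.3% and 64.7% in the day 0 sets, 50.3% in day 1 b2, 28.5% and 23.3% in the day 3 sets, 29.8% in day 4 b3, 18.2% in day 5 b2 and 24.8% in day 7 b2. Mapk14 made 33.6% and 29.6% at day 0 and 65.6% to 76% in the 5 of these sets from day 3 on. The shares of the day 0 sets did not overlap those of these 5 sets, and the shares were not tested as such. They are shares of set means, which single cells can weigh on. A single cell held up to 56.1% of the Mapk14 counts of a tested set (day 0 b1) and up to 56% of its Mapk13 counts (day 3 b1). In the sets left out, Mapk14 made 12.9% of the sum in the 5 cells of day 5 b1 and 30.9% in the 2 cells of day 7 b1. The sum itself was 32.7 to 44 TPM in the 7 tested sets of days 0 to 5, 78.5 TPM in day 7 b2 and 76.6 TPM in day 5 b1. In day 4 b3, 38 of 59 cells had Mapk14 without Mapk13, 13 had both and none had Mapk13 alone.

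Mapk11 (p38β, ENSMUSG00000053137) and Mapk12 (p38γ, ENSMUSG00000022610) were rare transcripts. Mapk11 was detected in 0 of 65 cells of day 7 b2, which allows a share of up to 5.52% (exact 95% interval), in 7 of 59 cells of day 4 b3 and in 1 to 4 cells of each other set. Its levels over the 8 sets ran from 0.00477 to 4.42 CPM. The lowest value is the single count of day 7 b2, against 345 counts at day 0, a ratio of 299.8. This ratio is given without an interval, since counts of the same cell are not independent. In day 0 b1, 1 cell held 85.8% of the counts, and in day 0 b2, 1 cell held 70.7%. Mapk12 was found in 1 to 5 cells of each set, at 0.0459 to 5.49 CPM, and 1 cell of day 7 b2 held 71.1% of its 1150 counts. No difference of either gene passed the test in edgeR (adjusted p from 0.261 to 1 against day 0). DESeq2 called Mapk11 lower at day 7 than at day 0, which rests on that 1 count.

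Mapkapk2 (ENSMUSG00000016528), the kinase that acts below p38α and p38β, was at 38 and 23.2 CPM in the day 0 sets, 28.9 in day 1 b2, 32.5 and 28.7 in the day 3 sets, 13.6 in day 4 b3, 17.5 in day 5 b2 and 13.2 in day 7 b2. The 3 latest sets lay below the 5 earlier ones. The differences from day 0 were −1.17 ± 0.93 at day 4, −0.81 ± 0.92 at day 5 and −1.22 ± 0.93 at day 7, and none passed (adjusted p from 0.59 to 0.85). Mapkapk2 was detected in 13 of 20 and 27 of 54 cells of the day 0 sets and in 22 of 65 of day 7 b2.

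**Figure D4:**
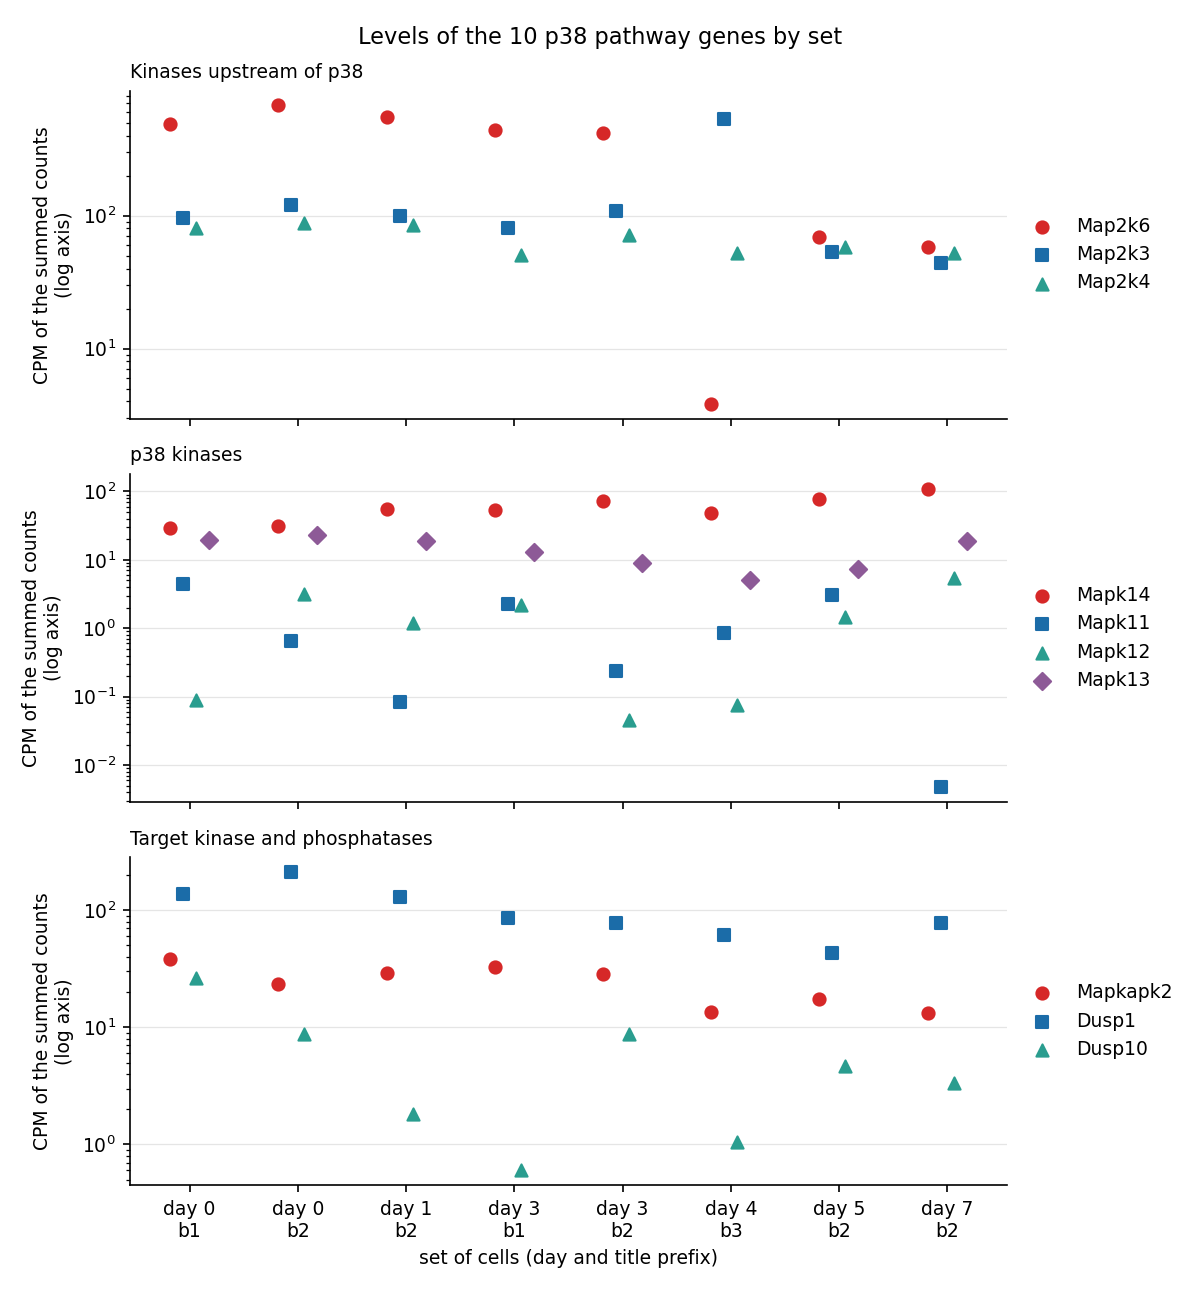
CPM of the 10 genes in the 8 sets on logarithmic axes, grouped by role, with 1 point per gene and set. Map2k3 (blue squares, top) stands at 529 CPM and Map2k6 (red circles) at 3.84 CPM in day 4 b3, and Mapk11 and Mapk12 (middle) scatter below 6 CPM.

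Dusp1 (MKP-1, ENSMUSG00000024190), an immediate early gene whose product dephosphorylates p38 and JNK, was highest at day 0. It stood at 137 and 212 CPM in the day 0 sets, 129 in day 1 b2, 85 and 78.1 in the day 3 sets, 62 in day 4 b3, 43.1 in day 5 b2 and 77.3 in day 7 b2. Both day 0 sets lay above all 6 later sets. Against the day 0 mean of 175 ± 52.7 CPM (SD, n = 2 sets), Dusp1 fell by 2.02 ± 0.60 at day 5 (adjusted p = 0.019, edgeR).

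At day 7 the difference was −1.18 ± 0.57 (adjusted p = 0.262), at day 4 −1.49 ± 0.58 (0.189) and at day 3 −1.10 ± 0.44 (0.21). The day 5 call did not hold without day 0 b2 (−1.68, adjusted p = 0.0526), without day 3 b1 (0.0674) or without day 3 b2 (0.07). Within prefix b2 the difference of day 5 from day 0 was −2.30. Dusp1 was detected in 95% and 81.5% of the day 0 cells and in 60.8% of day 5 b2 (exact 95% interval 49.1 to 71.6%).

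The promoter of Dusp1 is shown because this gene is known to be switched on through binding sites for CREB, a transcription factor reached by kinases below p38. The 300 bases, from RefSeq on GRCm38.p6, span chr17:26508423-26508722 on the minus strand, 250 bases before to 50 after the start of the gene, 5′ to 3′. Capitals mark the CREB motif TGACGTCA and its shorter form TGACG on either strand. TGACG lies within TGACGTCA, so the full motif is counted in both searches.

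Dusp1: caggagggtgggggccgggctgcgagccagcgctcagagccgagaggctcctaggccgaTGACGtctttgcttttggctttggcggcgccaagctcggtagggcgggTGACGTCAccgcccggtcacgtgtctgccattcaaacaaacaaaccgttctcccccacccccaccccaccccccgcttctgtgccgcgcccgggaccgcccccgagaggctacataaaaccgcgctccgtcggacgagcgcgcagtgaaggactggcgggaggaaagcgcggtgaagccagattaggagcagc

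The window held 1 full motif and 3 matches of the shorter one. The full motif reads the same on both strands and so holds a shorter match on each. The remaining match lies apart, nearer the 5′ end. Of 32851 mouse promoters of this length, 1.79% held the full motif and 20.812% the shorter one, on either strand. All 10 genes had a promoter in the table. Dusp1 was the only one with TGACGTCA, and Dusp1, Map2k4, Mapk11 and Mapkapk2 had TGACG. A match describes the letters of this window and not a site in use.

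Some other immediate early genes fell beside Dusp1. The list of 19 genes holds growth factor and stress responders that also rise when tissue is dissociated. It had 0 members called at day 1, 2 lower at day 3, 2 lower at day 4, 4 lower at day 5 and 5 lower at day 7, and none higher, where 1.04%, 0.965%, 2.18% and 3.05% of all genes were called lower at days 3, 4, 5 and 7. Its median log2 difference from day 0 was −1.34 at day 5 and −1.60 at day 7, where the median over all genes tested was 0. Egr1, a zinc finger transcription factor, stood at 598 and 1053 CPM in the day 0 sets, 275.5 in day 1 b2, 339 and 88.1 in the day 3 sets, 126 in day 4 b3, 69.7 in day 5 b2 and 95.8 in day 7 b2. Its day 0 sets lay above all later ones, and it fell at days 3, 4, 5 and 7, with log2 differences of −1.95, −2.71, −3.57 and −3.11 (adjusted p from 5.72e-08 to 9.13e-05). The day 3 call of Egr1 did not hold without day 3 b2 (−1.28, adjusted p = 0.717), and without day 3 b1 the difference was −3.23.

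Btg2, an antiproliferative gene, fell at days 3, 4 and 5, with differences of −1.78, −1.95 and −2.78 (adjusted p from 8.9e-05 to 0.0159). Without day 0 b2, where it was highest at 610.3 CPM, the day 5 difference was −1.86 and passed, the day 3 and day 4 differences were −0.86 and −1.03 and did not pass, nor did the day 3 difference without day 3 b1 (−1.41) or the day 4 difference without either day 3 set (adjusted p of 0.0837 and 0.0924). Like Dusp1 it carries TGACGTCA in its promoter, alone among the 16 genes of the list with one. Ier3 (−3.61 and −3.33) and Junb, an AP-1 subunit (−3.05 and −3.08), fell at days 5 and 7. Without day 0 b2 neither gene passed, with Ier3 at −1.84 and −1.56 and Junb at −2.40 and −2.43. Junb also missed the threshold at day 5 without either day 3 set and at day 7 without day 3 b1 (adjusted p from 0.053 to 0.0704). Fos fell by 1.76 at day 7 (adjusted p = 0.0149, and 0.0773 and 0.0855 without either day 3 set), and its day 1 set, at 447 CPM, was its highest. Within cells, Dusp1 had a Pearson r with Fos of 0.13 to 0.68 over the 8 sets and with Egr1 of −0.29 to 0.61. With Btg2 it was −0.14 to 0.52, with Ier3 −0.06 to 0.51 and with Junb 0.01 to 0.44. The medians were 0.29 for Fos, 0.20 for Egr1, 0.24 for Btg2, 0.09 for Ier3 and 0.22 for Junb. This is a description over cells without a p. The part of these genes in the values of Dusp1 was not tested.

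**Figure D5:**
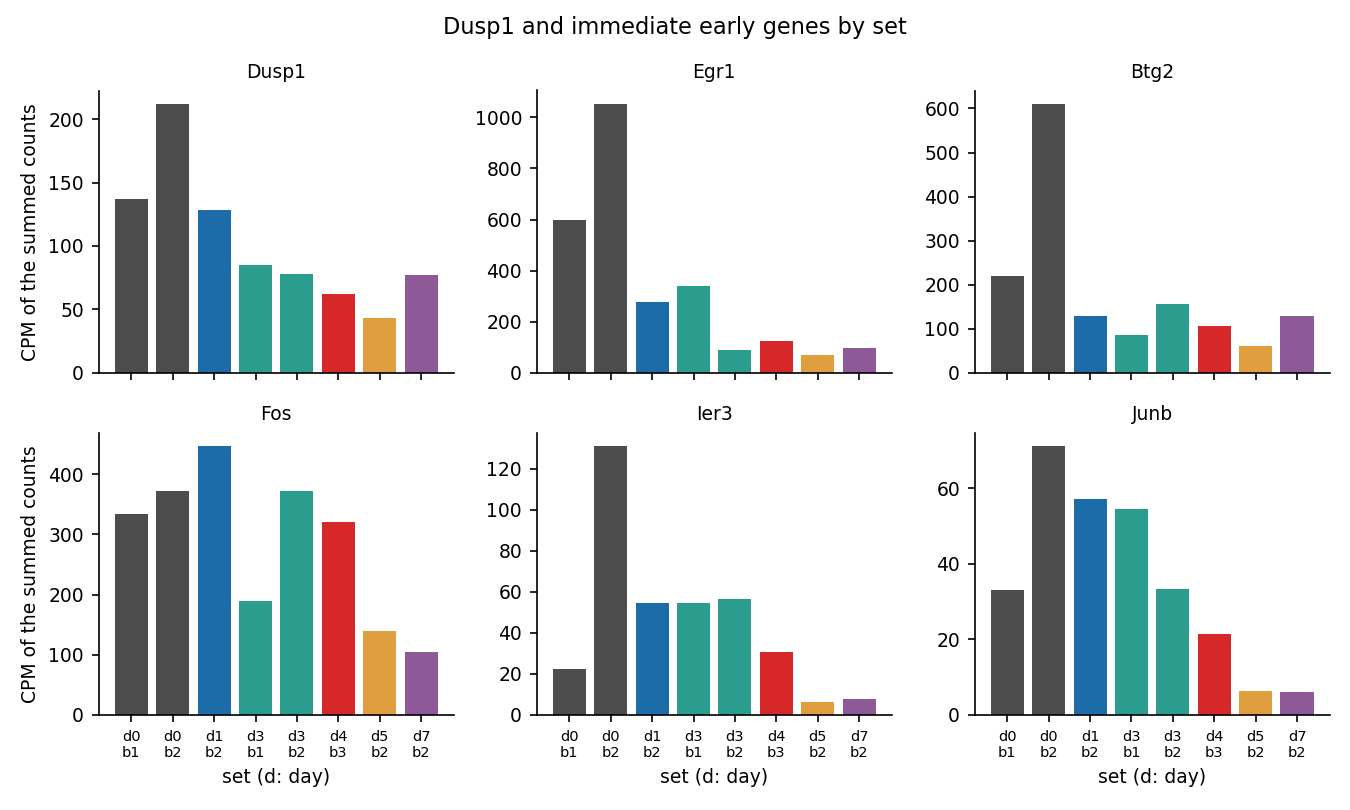
CPM of Dusp1 and 5 immediate early genes in the 8 sets (bars, each panel with its own linear axis from 0, colored by day). Dusp1 goes from 137 and 212 CPM at day 0 to 43.1 at day 5 b2, and Egr1 from 598 and 1053 to 69.7.

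Dusp10 (MKP-5, ENSMUSG00000039384), a phosphatase of p38 and JNK, was sparse. Its CPM was 26.3 and 8.83 in the day 0 sets, 1.81 in day 1 b2, 0.600 and 8.82 in the day 3 sets, 1.05 in day 4 b3, 4.69 in day 5 b2 and 3.38 in day 7 b2. Day 3 b2 lay just below day 0 b2, and 1 cell held 85% of the counts in day 0 b1 and 95.6% in day 7 b2. No difference from day 0 passed (adjusted p from 0.402 to 0.795).

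The wider pathway was described through lists of its other genes. Of 23 upstream kinases and adaptors, none were called at day 1, and 1, 1, 3 and 2 were lower at days 3, 4, 5 and 7, with none higher, beside the same 1.04%, 0.965%, 2.18% and 3.05% of all genes. Map3k20 (ZAK), the MAP3 kinase that senses stalled ribosomes, was at 513 and 629 CPM in the day 0 sets, 291 in day 1 b2, 233 and 221 in the day 3 sets, 154 in day 4 b3, 99.6 in day 5 b2 and 137 in day 7 b2. It fell at days 3, 4, 5 and 7, with differences of −1.33, −1.89, −2.52 and −2.06 (adjusted p from 0.000196 to 0.0267), and its day 0 sets lay above all others. Its day 3 and day 4 calls did not hold without either day 3 set (adjusted p from 0.091 to 0.706). Gadd45g, a stress-inducible activator of the MAP3 kinase Map3k4, fell at days 5 and 7 (−2.69 and −2.80). It stood at 88.5 CPM in day 0 b1 and 270.1 in day 0 b2, and without day 0 b2 the differences were −1.67 and −1.79, without day 0 b1 −3.28 and −3.39. Map3k1 fell by 1.91 at day 5 (adjusted p = 0.00738, and 0.0564 and 0.0621 without either day 3 set). The list's median log2 difference was 0.15 at day 5 and −0.24 at day 7.

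Of 17 downstream kinases and effectors, 15 were tested, and Rps6ka4 and Rps6ka5 were not analysed here. The only call against day 0 was Mef2c at day 7, where 3.05% of all genes were called lower. Mef2c, a transcription factor that p38 phosphorylates, stood at 15.4 and 28.7 CPM at day 0 and 3.50 in day 1 b2. It was at 17.3 and 19.8 in the day 3 sets, 3.92 in day 4 b3, 7.10 in day 5 b2 and 0.0429 in day 7 b2. The gene fell by 8.98 ± 1.95 at day 7 (adjusted p = 0.000207), where the set held 9 counts of it. Up to 100% of its counts in a set came from 1 cell. Mknk2 (1.51 at day 1, adjusted p = 0.179) and Ddit3 (−2.66 at day 7, adjusted p = 0.0782) did not pass. Of 14 other MAPK phosphatases, 1 was called against day 0, beside the same 3.05% of all genes. This was Dusp6, the ERK phosphatase, which fell by 1.72 at day 7 (adjusted p = 0.0408) from 73.9 and 137 CPM at day 0 to 32. Without day 0 b2 it was −1.21 (adjusted p = 0.16), and without either day 3 set the adjusted p was 0.121 and 0.128.

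The ERK and JNK arms run parallel to p38. Of 9 genes of the ERK arms, Mapk7 (ERK5) rose at day 7 by 3.74 ± 0.95 (adjusted p = 0.00299), from 2.91 and 5.22 CPM at day 0 to 54.3, and no other was called, where 3.55% of all genes were called higher. Of 7 genes of the JNK arm, 1 was called at days 3, 5 and 7 (2.1%, 2.56% and 3.55% of all genes were called higher). This was the scaffold Mapk8ip2, which had 0 counts at day 0. It stood at 4.27 and 0.819 CPM in the day 3 sets, 2.81 in day 5 b2 and 4.23 in day 7 b2. No fold is given, because 0 counts set no bound where 1 cell can hold most of a gene's counts. These calls of Mapk8ip2 held in 3 to 5 of 15 alternatives only, and up to 94.4% of its counts in a set came from 1 cell. Over the alternatives its log2 difference ran from 1.03 to 12.26 at day 3, 0.71 to 12.71 at day 5 and 0.83 to 13.29 at day 7.

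Over the 8 sets, the genes with a mean of 10 CPM or more whose log2 CPM was most like that of Map2k6 were, of 9303 ranked, Pef1 (Pearson r 0.96), Uqcrc1 (0.94), Jagn1 (0.92), Myo19 (0.92) and Zfp994 (0.91). Uqcrc1, a subunit of mitochondrial complex III, ran from 410.4 CPM in day 4 b3 to 806 in day 0 b2, a far smaller range than that of Map2k6. Of the cocktail, Esrrb had an r of 0.49 with Map2k6, Kdm2b 0.41, Jdp2 0.37, Nanog 0.37, Glis1 0.29 and Sall4 −0.49, and the r of Map2k3 was −0.51. In the day 4 set the mean TPM of the 6 other cocktail genes ran from 14.4 for Glis1 to 710.3 for Esrrb, and none of them was called against day 0. Map2k6 was thus the one cocktail gene called lower at day 4, where 0.965% of all genes were called lower. Of the 7, 5 were called lower at day 5 (2.18% of all genes) and 4 at day 7 (3.05%), where Nanog did not pass. These r rest on 8 sets that share days and prefixes and are a description.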

How the data were processed

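Single mouse cells were captured and their libraries made with the Fluidigm C1 system, per the labels' protocols. Reads were processed with bcl2fastq and RSEM 1.2.22, per the submitters' processing notes, and no genome build or annotation is given in the sources used here. The authors deposited 1 table of RSEM expected counts and 1 of TPM, each with 31673 genes and 461 cells. Of the deposited expected counts, 9.108% were not whole. Cells were mapped to days and prefixes by their titles, and 31266 gene names of the TPM table were matched to IDs, 473 of them through older symbols.

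For each set, the expected counts of its cells were added up, rounded, filtered by edgeR's filterByExpr and scaled by TMM. The 8 sets with 10 or more cells entered 1 edgeR 4.0.16 quasi-likelihood fit with a term per day (R 4.3.3), with 2 residual and infinite prior degrees of freedom, so that the spread of each gene was taken from the trend over all genes, and p-values were adjusted by Benjamini-Hochberg over 22378 genes, with 0.05 as the threshold. Cells are not replicates and entered no test. Intervals are exact Clopper-Pearson at 95% and cover counting error only. Alternatives were DESeq2 1.42.0, its size factors, no filter, limma 3.58.1 on log2(mean TPM + 1 or 0.1), the prefix as a block, all 10 sums, and each set, the highest cell, cells with fewer than 7000 genes or the day 4 set left out. The last 2, and 3 comparisons of neighbouring Map2k6 levels, were chosen after seeing the data.

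The 10 members and the gene lists were chosen with earlier results of these data known. Text names all members and, of each other list, up to 4 genes with the largest change that passed in a comparison and up to 2 with the smallest p that did not, as well as the 5 genes most like Map2k6. The genes set beside Dusp1 within cells were chosen after their values were seen.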

Additional observations from a re-analysis of the deposited data

Results flagged for a closer look

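At day 3, Mapk12 and Mapkapk2 differed from day 0 in opposite directions within the prefixes b1 and b2, each of which has 1 set per day. Mapk12 was 4.60 higher on the log2 CPM scale within b1 and fell by 6.12 within b2. Its summed counts were 5 in day 0 b1, 484 in day 0 b2, 460 in day 3 b1 and 6 in day 3 b2, and 1 cell held 98.9% of those of day 3 b1. Mapkapk2 differed by −0.226 within b1 and by 0.305 within b2, with CPM of 38 and 32.5 in the b1 sets and 23.2 and 28.7 in the b2 sets. The difference between the prefixes was not tested for either gene.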

How the results depend on the processing

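Of 1183 results on the 10 genes under an alternative, 1128 kept their direction and side of the threshold, 52 no longer passed, 3 newly passed and 0 reversed. Most of the 1183 had not passed in the main fit, and the 52 all fall on its few calls. Against day 0, Map2k6 still passed in 11 of 13 alternatives at day 4, and Map2k3 in 9 of 13. Dusp1 at day 5 and Mapk14 at day 7 each passed in 7 of 15. For day 4 against 3, Map2k6 passed in 10 of 13 and Map2k3 in 7 of 13. Of 384 on list genes, 217 kept both and 167 no longer passed. The causes were not tested. The number of genes called over all genes, 265, 703, 679, 1059 and 1477 at days 1, 3, 4, 5 and 7 against day 0 and 49, 107 and 124 for day 4 against 3, 5 against 4 and 7 against 5, was 716, 1569, 1248, 2178, 2904, 143, 341 and 472 with DESeq2 and 1, 37, 33, 158, 352, 2, 0 and 18 with all 10 sums (for the 0, 582 at an unadjusted p under 0.05). In limma with a pseudocount of 1 it was 0 in all 8 comparisons (922 to 3501 unadjusted, and DESeq2 and edgeR as above), with 0.1 it was 0 except 325 at day 7 (893 to 3233 unadjusted), and without the filter 0 and 0 (2289 and 2592 unadjusted), 166, 542, 84, 403 and 593 for the comparisons other than day 7 against day 0. Without the highest cell of each gene it was 19, 61 and 62 in the last 3 comparisons. With 1 set left out it ran 145 to 440, 261 to 793, 421 to 846, 691 to 1271, 918 to 1678, 15 to 111, 52 to 188 and 69 to 221.

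In limma with pseudocounts of 1 and 0.1, these log2 differences no longer passed. Map2k6 was at −7.02 and −7.30 at day 4, −2.87 and −2.88 at day 5 and −3.41 and −3.43 at day 7 against day 0, −7.04 and −7.32 for day 4 against 3, and 4.15 and 4.41 for day 5 against 4. Map2k3 was at 3.38 and 3.40 at day 4 against day 0, 3.18 and 3.20 against day 3, and −4.22 and −4.26 for day 5 against 4. Dusp1 was at −1.68 and −1.70 at day 5 and Mapk14 at 2.12 and 2.20 at day 7. Without the filter the values were those of pseudocount 1, and the Map2k6 differences of days 4 and 7 from day 0 then passed. With all 10 sums Map2k3 was at 2.37, 2.53 and −3.45 in its 3 comparisons, Map2k6 at 3.49 for day 5 against 4, Dusp1 at −0.85 and Mapk14 at 1.11, none of which passed. With 1 set left out, Dusp1 at day 5 ran from −2.30 to −1.68, Mapk14 at day 7 from 1.82 to 1.92 and Map2k3 for day 4 against 3 from 2.29 to 2.72.

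With the prefix as a replicate block over 7 sets, 3, 158, 275 and 419 genes were called at days 1, 3, 5 and 7 against day 0 and 16 for day 7 against 5. Under the block Dusp1 at day 5 was at −2.12 and Mapk14 at day 7 at 1.74, and neither passed, while Map2k6 passed at day 5 (−3.16) and day 7 (−3.40) against day 0 and did not pass for day 5 against day 3 (−2.73, adjusted p = 0.0943). Of 23 calls of list genes refitted with the block, 3 passed (Btg2 and Map3k20 at day 5 and Mef2c at day 7) and 20 did not. Deviations of b1 from b2 at days 0 and 3 had an r of 0.0574 over genes, and with 2 pairs and no label on the meaning of the prefix, whether it pairs the sets is not known. Thinned to 300000 counts per cell, the share of day 4 cells with Map2k6 was 13.6% in place of 15.3%. The set values of Mapk11, Mapk12 and Dusp10 rest on few cells.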
